A study of Mus musculus with 6 samples.

Results

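Interferon-stimulated genes were followed in mouse retina on 6 dual-colour arrays. The set holds 35 genes listed by symbol as well-known targets of interferon signalling, and every array probe whose RefSeq accession led to one of these symbols was taken. Probes were found for 33 of the 35 genes, and 32 were bright enough to be measured, out of 24088 genes tested on the arrays. The probe of Oas3 was too dim, and Mx1 and Mx2 were not analysed here.

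The groups were adult male C57BL/6 mice, 12 in each, whose right eye was given an intravitreal injection of 1 µM SH-42, of 1 µM SH-80 or of phosphate-buffered saline as control, and at 7 days 4 retinas were combined per tube. SH-42 and SH-80 are known here only by these code names. Each array carried, by the labels, RNA of a compound in the Cy3 (green) channel and control RNA in the Cy5 (red) channel, with 3 arrays per compound and no exchange of dyes. Whether the arrays had separate tubes is not stated, so control RNA may have been shared and p-values measure only the spread between these arrays, which may be technical. Slide 1 carried SH-42 replicates 1 and 2, and slide 2 carried SH-42 replicate 3 and all 3 SH-80 arrays.

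Interferons are secreted when cells sense viral or misplaced nucleic acids. Through their receptors they activate kinases of the JAK family, which phosphorylate STAT proteins. Complexes that hold Stat2 and Irf9 then bind the interferon-stimulated response element in front of target genes, and other STAT complexes bind the gamma-activated site. The targets restrict viruses and intracellular pathogens, and several of them are sensors or transcription factors that amplify the response. In the retina, microglia, Muller glia, vessels and neurons can all express them.

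The promoters of these genes were searched for the core GAAANNGAAA of the interferon-stimulated response element on both strands, where it reads TTTCNNTTTC in reverse. RefSeq promoter windows of build GRCm38.p6, from 250 bases before to 50 bases after a gene start, were found for 27 of the 35 genes, in 31 windows. The core lay in at least 1 window of 17 of these 27 genes, that is in 54.8% of their windows, against 3.44% of all 32851 promoter windows of the table. The core TTCNNNGAA of the gamma-activated site, which reads the same on both strands, lay in 25.8% of the windows of these genes and in 8.30% of all windows. Overlapping matches were allowed, and a match describes letters, not binding. Usp18, Dhx58, Oas2, Parp14, Rtp4, Iigp1, Mx1 and Mx2 had no window in the table.

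The 130 bases just before the start are shown for 4 genes with the core and for 1 gene without it, each of which has its array values below. Capitals mark the bases covered by matches to GAAANNGAAA or its reverse, and each sequence is read along the strand of the gene. They lie at chr4:156200819-156200948 on the minus strand (Isg15), chr19:34640759-34640888 on the plus strand (Ifit1), chr3:142620533-142620662 on the plus strand (Gbp2), chr5:120907526-120907655 on the minus strand (Oas1a) and chr7:141266425-141266554 on the minus strand (Irf7).
Isg15: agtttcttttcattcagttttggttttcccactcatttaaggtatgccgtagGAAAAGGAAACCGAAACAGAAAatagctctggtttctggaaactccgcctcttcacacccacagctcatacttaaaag
Ifit1: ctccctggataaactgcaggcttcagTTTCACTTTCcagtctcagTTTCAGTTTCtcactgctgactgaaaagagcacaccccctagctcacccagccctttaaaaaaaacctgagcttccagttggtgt
Gbp2: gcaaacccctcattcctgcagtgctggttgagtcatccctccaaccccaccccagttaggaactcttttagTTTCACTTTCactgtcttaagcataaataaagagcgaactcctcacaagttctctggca
Oas1a: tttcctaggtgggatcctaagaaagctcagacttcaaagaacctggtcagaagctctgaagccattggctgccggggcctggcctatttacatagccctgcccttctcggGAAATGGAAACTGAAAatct
Irf7: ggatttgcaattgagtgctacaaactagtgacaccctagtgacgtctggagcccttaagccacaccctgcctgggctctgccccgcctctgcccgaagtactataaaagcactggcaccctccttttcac
Isg15 carries 3 overlapping matches, Oas1a 2 overlapping ones, Ifit1 2 separate ones and Gbp2 1. No match lies in the stretch of Irf7.

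Spots well above background made up 58.3% to 63.1% in Cy3 and 70.9% to 76.7% in Cy5. Photoreceptor markers marked the tissue as retina, with a median log2 signal of the 5 rod genes between 16.39 and 16.93 in Cy5. SH-42 replicate 1 stood apart from the other arrays. Its log ratios correlated with those of the 5 others at r of -0.16 to 0.16 across genes, which are not independent replicates, while the 10 remaining pairs lay between 0.47 and 0.87. The difference was carried by Cy5, where its correlations with other arrays were 0.962 to 0.975, against 0.990 to 0.998 for the remaining pairs, and in Cy3 all 15 pairs lay between 0.997 and 0.999.

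Log2 ratios have Cy3 as numerator and Cy5 as denominator, so by the labels they read compound over control. The deposited value table of the series runs the other way, Cy5 over Cy3. Which channel held which RNA was therefore left unsettled, and with the channels exchanged each ratio would change sign. A gene-specific dye effect also remains in each ratio to control, since no dyes were exchanged, whereas it cancels in the difference between the compounds.

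The interferon-stimulated genes varied between arrays almost wholly in the Cy5 channel, labelled control. Their log2 Cy3 signals spanned a median of 0.17 over the 6 arrays, close to the 0.18 of all genes, and at most 0.47. In Cy5 they spanned a median of 1.26, against 0.38 over all genes, and up to 2.28. The SD over arrays was larger in Cy5 than in Cy3 for 32 of the 32 genes, against 78.7% of all genes. Both slide 1 arrays lay above all 4 slide 2 arrays in Cy5 for 28 of the 32 genes, or 87.5%, against 13.5% of all genes. In Cy3 this held for 12 of the 32, or 37.5%, against 14.2% of all genes, so that order was also more frequent among these genes in Cy3.

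**Figure D1:**
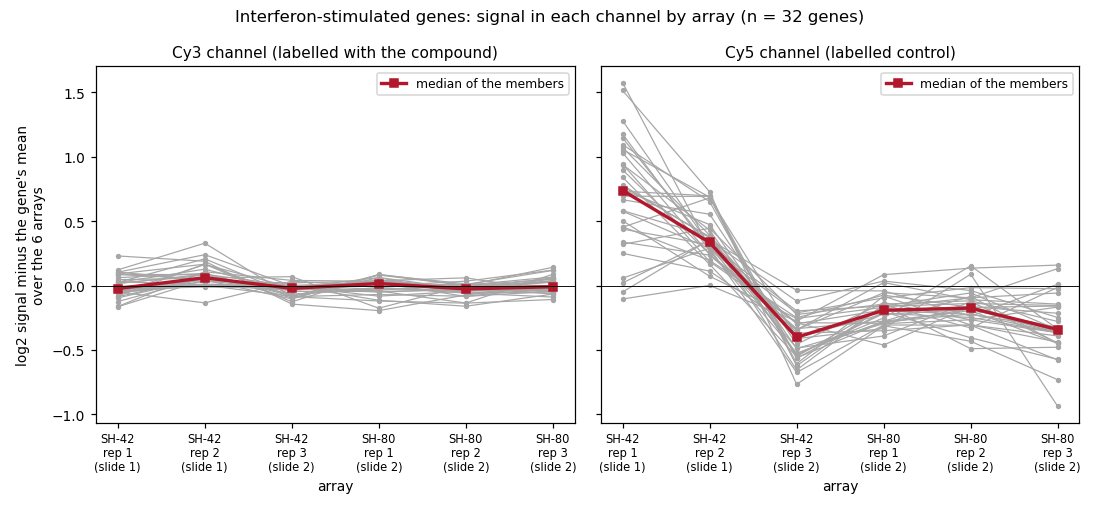
Log2 signal of each of the 32 measured interferon-stimulated genes (grey lines) on the 6 arrays, minus the gene's mean over the arrays, in Cy3 (left) and Cy5 (right). Red squares are the medians. The Cy3 lines stay near 0, whereas in Cy5 most genes are high on SH-42 replicates 1 and 2 and low on the other 4 arrays.

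The ratios accordingly differed in sign between arrays of the same compound. The median log2 ratio of the 32 genes was -0.70, -0.20 and 0.34 on SH-42 replicates 1, 2 and 3, and 0.17, 0.13 and 0.32 on SH-80 replicates 1, 2 and 3. Over all genes this median lay between -0.03 and -0.02 on every array. Both slide 1 ratios were negative for 30 of the 32 genes, or 93.8%, against 36.5% of all genes. All 4 slide 2 ratios were positive for 23 of the 32, or 71.9%, against 26.8% of all genes. SH-42 replicate 3 thus lay with the SH-80 arrays on its slide and not with the other 2 SH-42 arrays. Only 2 of the 32 genes, Oas1g and Iigp1, kept 1 sign on all 3 SH-42 arrays, against 47.2% of all genes.

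**Figure D2:**
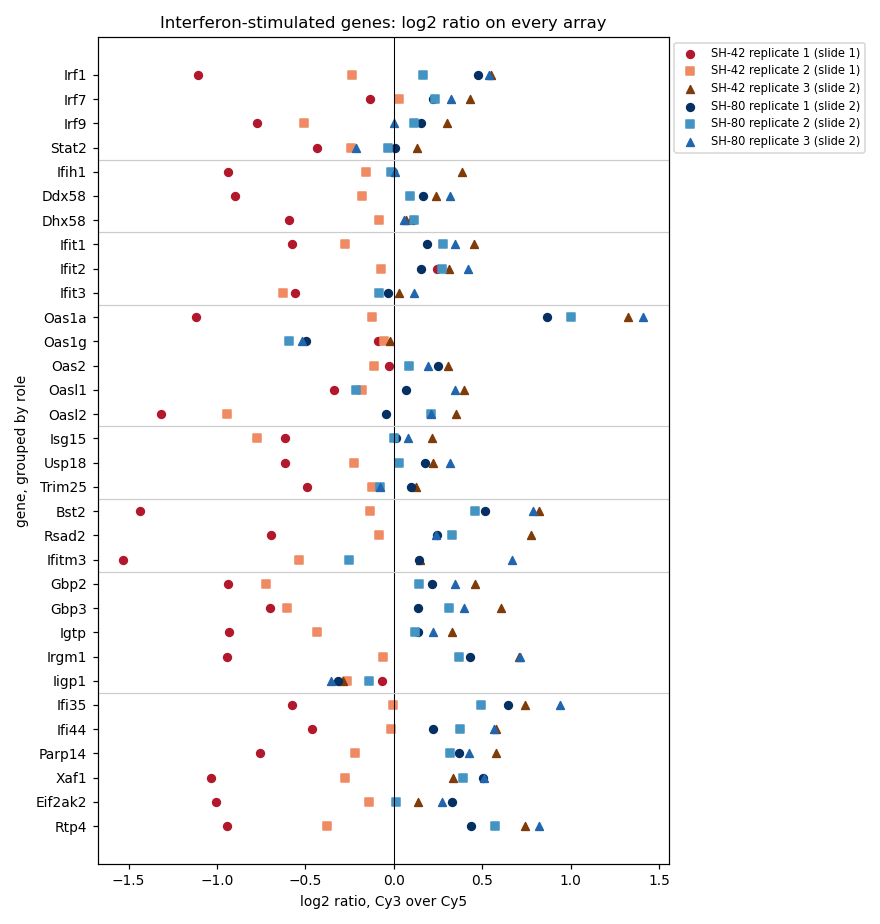
Log2 ratio, Cy3 over Cy5, of each measured interferon-stimulated gene on each of the 6 arrays, with genes grouped by role. Red and orange circles and squares (SH-42 replicates 1 and 2, slide 1) lie mostly left of 0, and brown triangles (SH-42 replicate 3) lie mostly among the blue SH-80 points right of 0.

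Among the transcription factors, Stat2 and Irf9, which act together in the factor that binds the response element, were measured along with Irf1 and Irf7, which drive interferon and target genes. Stat2 had log2 ratios of -0.43, -0.24 and 0.13 on the SH-42 arrays and 0.01, -0.04 and -0.21 on the SH-80 arrays. Irf7, the regulator whose promoter stretch above holds no response element core, had -0.14, 0.03 and 0.43 on the SH-42 arrays and 0.22, 0.23 and 0.32 on the SH-80 arrays. Both groups overlapped for both genes. Irf1, which responds strongly to interferon gamma, had -1.11, -0.24 and 0.55 on the SH-42 arrays and 0.48, 0.16 and 0.54 on the SH-80 arrays. Its Cy3 signal stayed between 10.51 and 10.56 while its Cy5 signal ran from 9.99 to 11.62. Irf9 had -0.77, -0.51 and 0.30 with SH-42 and 0.15, 0.11 and 0.00 with SH-80. For each of the 4 factors, all 3 SH-80 ratios lay above both slide 1 ratios.

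The cytosolic RNA sensors Ifih1 (MDA5) and Ddx58 (RIG-I) and their regulator Dhx58 (LGP2) followed the same split by slide. Ifih1 had log2 ratios of -0.94, -0.16 and 0.38 on the SH-42 arrays, while its SH-80 values lay between -0.01 and 0.01. Ddx58 had -0.90, -0.18 and 0.24 on the SH-42 arrays and 0.17, 0.09 and 0.32 on the SH-80 arrays. A dimmer probe of Ddx58 gave means of 0.23 for SH-42 and 0.60 for SH-80, against -0.28 and 0.19 for the probe used, so the sign of its SH-42 mean depends on the probe. Dhx58, well above background in Cy3 on 2 SH-42 and 3 SH-80 arrays, was below 0 on both slide 1 arrays at -0.59 and -0.08, and between 0.06 and 0.12 on the other 4.

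The IFIT proteins bind foreign RNA ends. Ifit1, with its pair of response element cores shown above, had log2 ratios of -0.57, -0.28 and 0.45 on the SH-42 arrays and 0.19, 0.28 and 0.34 on the SH-80 arrays. Ifit3 had -0.56, -0.63 and 0.03 on the SH-42 arrays and -0.03, -0.08 and 0.11 on the SH-80 arrays. Ifit2 departed from the split, with 0.25, -0.07 and 0.31 on the SH-42 arrays and 0.15, 0.27 and 0.42 on the SH-80 arrays. It was the only one of the 32 genes above 0 on SH-42 replicate 1.

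The oligoadenylate synthetases make the messenger that activates RNase L. Oas1a had the widest Cy5 span of the 32 genes. Its log2 Cy5 signal was 10.33, 9.54 and 8.05 on the SH-42 arrays and 8.51, 8.38 and 8.09 on the SH-80 arrays, against 9.21 to 9.49 in Cy3 over all 6. The ratios were -1.12, -0.12 and 1.32 with SH-42 and 0.86, 1.00 and 1.41 with SH-80. A dimmer Oas1a probe gave SH-80 values of 0.45, 0.43 and 0.75, so its size depends on the probe. Oasl2, an OAS-like protein, had -1.32, -0.94 and 0.35 with SH-42 and -0.04, 0.21 and 0.21 with SH-80. Oasl1, which in mouse restrains translation of Irf7, had -0.34, -0.18 and 0.40 with SH-42 and 0.07, -0.21 and 0.34 with SH-80, and Oas2 stayed between -0.11 and 0.31.

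Oas1g, a close paralog of Oas1a, ran differently from the rest. Its log2 ratios were -0.09, -0.06 and -0.02 on the SH-42 arrays and -0.50, -0.59 and -0.52 on the SH-80 arrays, without overlap. Its Cy3 signal was not well above background on any array (0 of 6), while Cy5 was on 6 of 6, so Cy3 gives only a bound. By that bound the SH-80 signal is at least 1.015-fold lower in Cy3 than in Cy5, which is close to no difference. The bound comes from the lowest signal still well above background on each array. The SH-80 means were 6.74 in Cy3 and 7.28 in Cy5. No fold holds for SH-42, with means of 6.97 and 7.02. A second Oas1g probe, too dim to be used, had an SH-80 mean of 0.01. Probes of such near-identical genes can also catch each other's RNA.

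Isg15, the ubiquitin-like modifier with the overlapping cores shown above, had log2 ratios of -0.62, -0.77 and 0.22 on the SH-42 arrays and 0.01, 0.00 and 0.08 on the SH-80 arrays. In Cy5 its signal was 11.00, 11.23 and 10.15 with SH-42 and 10.33, 10.37 and 10.23 with SH-80. In Cy3 it was 10.39, 10.46 and 10.37 with SH-42 and 10.34, 10.37 and 10.30 with SH-80. The Cy3 groups did not overlap, although their nearest values both round to 10.37, whereas in Cy5 the slide 1 arrays were high. A dimmer Isg15 probe, well above background in Cy3 on 3 arrays, gave ratios of -0.30, -0.07 and 0.11 with SH-42. With SH-80 it gave 0.14, -0.05 and 0.28, so the size of the Isg15 ratios depends on the probe. Usp18, the protease that removes Isg15, had ratios of -0.62, -0.23 and 0.22 with SH-42 and 0.17, 0.03 and 0.32 with SH-80. Trim25, a ubiquitin ligase that activates RIG-I, spanned the narrower range from -0.49 to 0.13.

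Of the proteins that block virus entry, replication or release, Bst2 (tetherin) had log2 ratios of -1.43, -0.13 and 0.82 on the SH-42 arrays and 0.51, 0.46 and 0.78 on the SH-80 arrays. Ifitm3, which bars fusion in endosomes, had -1.53, -0.54 and 0.15 with SH-42 and 0.14, -0.26 and 0.67 with SH-80. Its Cy3 signal lay between 10.58 and 10.68 on all 6 arrays. Rsad2 (viperin) had -0.69, -0.08 and 0.77 with SH-42 and 0.24, 0.33 and 0.24 with SH-80. On SH-42 replicate 1, Ifitm3 and Bst2 had the lowest ratios of the 32 genes.

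The guanylate-binding proteins and immunity-related GTPases attack the vacuoles of intracellular pathogens. Gbp2, with 1 response element core in the stretch above, had log2 ratios of -0.94, -0.72 and 0.46 on the SH-42 arrays and 0.21, 0.14 and 0.35 on the SH-80 arrays. Gbp3, Igtp and Irgm1 were likewise below 0 on both slide 1 arrays (-0.94 to -0.06) and above 0 on the other 4 (0.12 to 0.71). Iigp1 did not share this, with -0.07, -0.27 and -0.29 on the SH-42 arrays and -0.32, -0.14 and -0.36 on the SH-80 arrays. A second Iigp1 probe, too dim to be used, had positive means of 0.28 for SH-42 and 0.57 for SH-80.

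The remaining effectors were Eif2ak2 (PKR, the RNA-activated kinase that halts translation), Parp14, Xaf1 (a promoter of apoptosis), Ifi35, Ifi44 and Rtp4. By the probes used, all 6 were below 0 on both slide 1 arrays and above 0 on all 4 slide 2 arrays. Ifi44 was well above background in Cy3 on only 1 SH-42 and 2 SH-80 arrays. Rtp4 had log2 ratios of -0.94, -0.38 and 0.74 with SH-42 and 0.44, 0.57 and 0.82 with SH-80. Xaf1 had -1.04, -0.28 and 0.34 with SH-42 and 0.50, 0.39 and 0.51 with SH-80, so that its groups did not overlap. A dimmer Xaf1 probe was above 0 on both slide 1 arrays, at 0.34 and 0.03. It gave an SH-42 mean of 0.27 against -0.33 for the probe used, with SH-80 means of 0.44 and 0.47. Ifi35 had -0.57, -0.01 and 0.74 with SH-42 and 0.64, 0.49 and 0.94 with SH-80.

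Against control, no interferon-stimulated gene passed the test with SH-42. The test was limma's moderated test over all 6 arrays, two-sided, with Benjamini-Hochberg adjustment over 24088 genes and a threshold of 0.05, and it called 0 of the 32 where 0.59% of all genes were called. At an unadjusted p under 0.05 it took 2 of the 32, both lower in Cy3, against 23.5% of all genes in either direction and 14.2% lower. The coefficients were positive for 6 of the 32, with a median of -0.21 beside -0.03 for all genes. Ifit3 had the smallest p, with a log2 ratio of -0.39 ± 0.13 (SE, n = 3, limma adjusted p = 0.168), followed by Iigp1 at -0.21 ± 0.07 (adjusted p = 0.173). Oasl2 (-0.64 ± 0.29, adjusted p = 0.246), Isg15 (-0.39 ± 0.18, adjusted p = 0.247) and Ifitm3 (-0.64 ± 0.32, adjusted p = 0.270) had larger errors, and Ifit2 was positive at 0.16 ± 0.09 (adjusted p = 0.326).

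The sign of the SH-42 median rested on SH-42 replicate 1. Leaving that array out gave 0.03, with 0 of the 32 called against 1.78% of all genes, and leaving out SH-42 replicate 3 gave -0.52. From the slide 2 arrays alone, where 1 SH-42 array was assumed to vary like the SH-80 arrays, it was 0.34, with 4 of the 32 genes called where 4.8% of all genes were. With slide as a fixed block, at the average mix of slides, it was 0.05, with 0 of the 32 and 0% of all genes called. With arrays centred on their median in place of loess, 10 of the 32 were called, or 31.2%, against 37.5% of all genes. Oas1g was then higher in Cy3, as 7.26% of all genes were, and Ifit3, Isg15, Irf9, Stat2, Oasl2, Igtp, Ifitm3, Trim25 and Iigp1 were lower, as 30.3% of all genes were, while the median of all genes also moved, to -0.25.

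With SH-80, 1 interferon-stimulated gene, Oas1g, passed the test and was lower in Cy3, at -0.54 ± 0.05 (SE, n = 3, limma adjusted p = 0.0150, lower on 3 of 3 arrays), with the bound given above. This was 1 of 32 where 14.7% of all genes were called, 10.1% lower and 4.62% higher. The call was lost when any 1 of the 3 SH-80 arrays was left out (adjusted p = 0.106 to 0.150), with slide as a fixed block (adjusted p = 0.135) and with median centring (adjusted p = 0.286). At an unadjusted p under 0.05, 3 genes were higher, against 13.3% of all genes, and 2 lower, against 22.2%, where 35.5% were taken in either direction. Yet 26 of the 32 coefficients were positive, with a median of 0.20 beside -0.03 for all genes. Iigp1 missed the threshold at -0.27 ± 0.07 (adjusted p = 0.0542), Ifit2 at 0.28 ± 0.09 (adjusted p = 0.0880) and Ifi35 at 0.69 ± 0.23 (adjusted p = 0.0895). Oas1a had the largest ratio and the widest error, 1.09 ± 0.41 (adjusted p = 0.117), and Irf7 had 0.26 ± 0.11 (adjusted p = 0.144).

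How many genes were called with SH-80 depended on which SH-42 arrays entered the shared estimate of the spread. From the SH-80 arrays alone, which are also what slide 2 holds of SH-80, 17 of the 32 were called, or 53.1%, against 38.2% of all genes. The 15 higher ones were Ifit1, Ifit2, Irf1, Irf7, Oas1a, Bst2, Rsad2, Ifi35, Ifi44, Gbp2, Gbp3, Irgm1, Parp14, Xaf1 and Rtp4, where 16% of all genes were called higher, and the 2 lower ones were Oas1g and Iigp1, where 22.2% were called lower. Oas1a then had an SE of 0.11 at the same ratio (adjusted p = 0.00371) and Ifi35 an SE of 0.09 (adjusted p = 0.00671). In the fit of both compounds without SH-42 replicate 1, 10 of the 32 were called, or 31.2%, against 38.8% of all genes, with 8 higher (16% of all genes) and 2 lower (22.8%). With slide as a fixed block 0 of the 32 and 0% of all genes were called, and the median was -0.05.

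**Figure D3:**
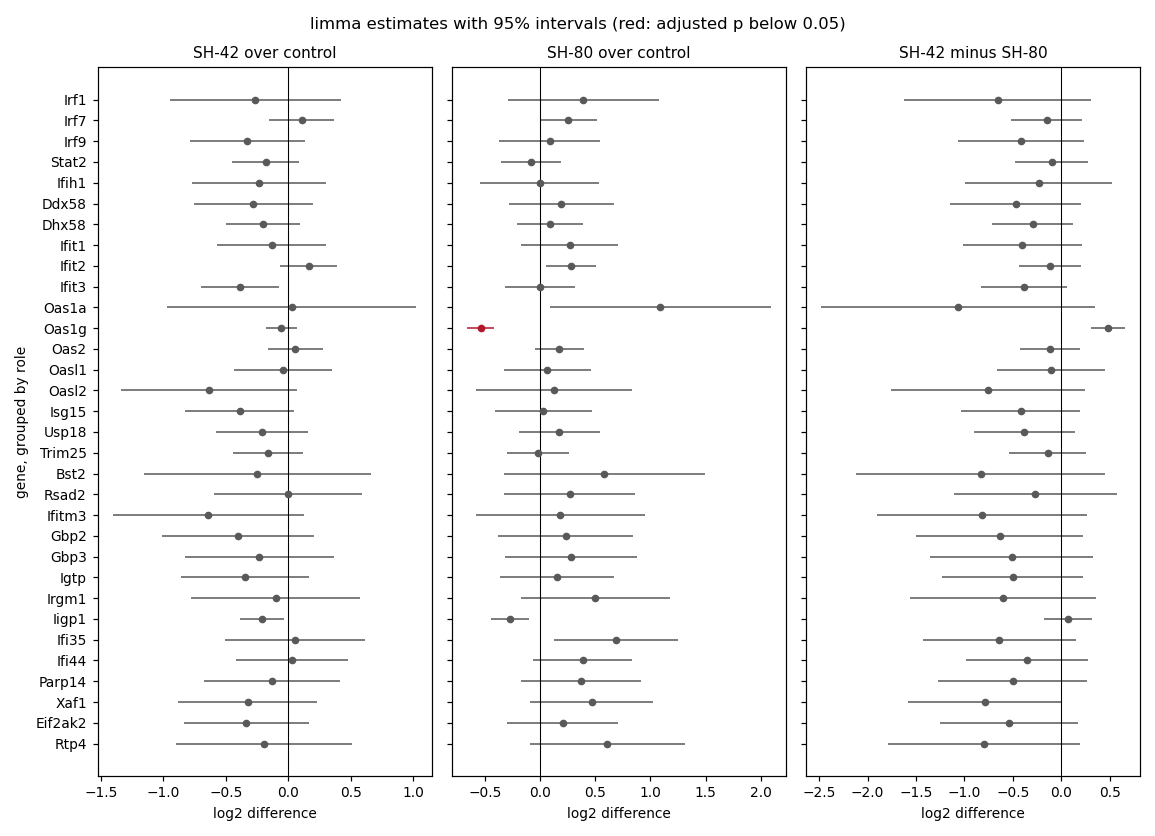
Log2 ratio to control for each compound, and their difference, for the 32 measured interferon-stimulated genes, as limma estimates (points) with 95% intervals (bars), each panel on its own axis. The 1 red point, Oas1g with SH-80, has an adjusted p under 0.05, and in the right panel 30 of the 32 estimates are below 0.

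Set directly against each other, SH-42 and SH-80 did not differ in any interferon-stimulated gene at the threshold. The limma test of the difference called 0 of the 32 and 0% of all genes, and at an unadjusted p under 0.05 it took 2 of the 32 against 3.91% of all genes. The difference, SH-42 minus SH-80, was negative for 30 of the 32, with a median of -0.42 beside 0.02 for all genes. The intervals were wide, so a missed threshold does not show that the compounds act alike. Oas1g was at 0.48 (95% interval 0.30 to 0.66, adjusted p = 0.691), a value that rests on Cy3 signals not well above background and gives no fold. Xaf1 was at -0.79 (-1.58 to -0.01, adjusted p = 0.691). Rtp4 was at -0.80 (-1.79 to 0.19), Ifi35 at -0.64 (-1.43 to 0.16), Eif2ak2 at -0.54 (-1.25 to 0.17) and Ifit3 at -0.39 (-0.83 to 0.06), each with an adjusted p of 0.691. Oas1g and Xaf1 were the 2 genes whose ratios did not overlap between the compounds, where 13.5% of all genes did not (8.08% with SH-42 above, as Oas1g within that limit, and 5.44% with SH-42 below, as Xaf1). Within slide 2 the median of the difference was 0.18, opposite in sign, and it was also 0.18 with slide as a fixed block. Leaving out SH-42 replicate 1 took it to -0.19, and leaving out SH-42 replicate 3 to -0.73.

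The same comparison within each channel placed the difference in Cy5. Within Cy3, the channel labelled with the compounds, 17 of the 32 genes were higher with SH-42, the median difference was 0.0038 beside -0.02 for all genes, and limma called 0 of the 32 and 0% of all genes (unadjusted 2 of the 32, and 9.2% of all genes). Iigp1 had the largest Cy3 difference at 0.24 (95% interval 0.0027 to 0.48, adjusted p = 0.529), and Oas1g followed at 0.23 (0.07 to 0.39, adjusted p = 0.529), with its Cy3 signals not well above background. Stat2 was at -0.09 (-0.18 to 0.01, adjusted p = 0.529), Ddx58 at 0.09 (-0.01 to 0.18, adjusted p = 0.529), Ifi35 at -0.10 (-0.23 to 0.04, adjusted p = 0.534) and Isg15 at 0.07 (-0.03 to 0.16, adjusted p = 0.537). Isg15, Oas1g and Iigp1 were the 3 genes whose Cy3 signals did not overlap between the compounds, all with SH-42 above, against 16.2% of all genes and 5.9% in that direction.

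Within Cy5, the channel labelled control on every array, 31 of the 32 genes were higher on the SH-42 arrays, with a median difference of 0.49 beside -0.02 for all genes. Limma called 0 of the 32 and 0% of all genes here too (unadjusted 1 of the 32, and 3.63% of all genes). Rtp4 was at 0.79 (95% interval -0.22 to 1.79), Xaf1 at 0.73 (-0.10 to 1.56), Eif2ak2 at 0.65 (-0.13 to 1.44), Usp18 at 0.37 (-0.07 to 0.82) and Ifit3 at 0.36 (-0.08 to 0.80), each with an adjusted p of 0.700. Oas1g was the 1 gene with a negative difference, at -0.25 (-0.47 to -0.03, adjusted p = 0.700), which became 0.41 by loess without Aquantile, and the 1 gene whose Cy5 signals did not overlap, with SH-42 below, against 13.4% of all genes and 8.6% in that direction. With slide as a fixed block, where the difference rests on SH-42 replicate 3, the Cy5 median was -0.17. Without SH-42 replicate 1 it was 0.23.

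The ligands, receptors, kinases, sensors and other genes that surround these targets were read from lists of 79 further pathway genes, of which 69 were measured. With SH-42, limma called 0 of the 69, where 0.59% of all genes were called, and 15 were positive, against 43% of all genes, with a median of -0.11. Tlr7, an endosomal RNA sensor, had the smallest p at -0.34 ± 0.08 (SE, n = 3, adjusted p = 0.129). The adaptor Mavs of the RNA sensors had -0.29 ± 0.07 (adjusted p = 0.134) and the nucleotide kinase Cmpk2 0.32 ± 0.08 (adjusted p = 0.140).

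With SH-80, 48 of the 69 were positive, against 44.4% of all genes, with a median of 0.14. Of the 69, 4 passed the test, a smaller share than the 14.7% of all genes, with 2 higher (4.62% of all genes) and 2 lower (10.1%). Cmpk2 was higher in Cy3 by 0.37 ± 0.08 (SE, n = 3, limma adjusted p = 0.0410) and Irf2, a factor that binds the same element as Irf1, by 0.30 ± 0.07 (adjusted p = 0.0472). Aim2, the DNA sensor of an inflammasome, passed with a negative coefficient (adjusted p = 0.0488), but its Cy3 signal was not well above background on any array and its bound gives no fold, so its direction is not settled, and the coefficient was 0.18 with median centring. Cmpk2 had log2 ratios of 0.21, 0.42 and 0.46 on the SH-80 arrays and also 0.29, 0.17 and 0.51 on the SH-42 arrays. Among the measured ligands 2 of 4 were positive, among receptors 4 of 6, among kinases and STATs 4 of 5, among inhibitors 4 of 6, among nucleic acid sensors and adaptors 8 of 13 and among other interferon regulatory factors 3 of 5. The ligands Ifna4 and Ifnk were well above background in Cy3 on 0 arrays and Ifna2 on 2, so their signs are not settled. Nor are those of the receptor Ifnlr1 and the sensor Tlr4, with 0 such arrays, or of the sensor Tlr3, with 1 such array.

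A second list of 30 measured interferon-induced genes outside the 32 had a median that moved between arrays much as that of the 32 did. Its median log2 ratio was -0.64, -0.12 and 0.26 on the SH-42 arrays and 0.21, 0.05 and 0.33 on the SH-80 arrays. Of these 30, 5 were positive with SH-42 and 23 with SH-80. On SH-80 replicate 2, 17 of the 30 were positive, against 24 on each of the other SH-80 arrays, and Ifitm1 was at -2.69 and Ifitm2 at -0.82. Herc6 and Zc3hav1 were well above background in Cy3 on 0 arrays, so their signs are not settled.

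Several lists of cell type markers also differed between arrays. The 9 measured of 10 microglia markers had a median log2 ratio of -1.26, -0.01 and 0.79 on the SH-42 arrays and 0.51, 0.70 and 0.91 on the SH-80 arrays. Their median Cy5 signal ran from 9.54 to 13.83 on the SH-42 arrays and from 9.89 to 10.14 on the SH-80 arrays, highest on SH-42 replicate 1. The median of the 3 markers of astrocytes or stressed glia (Gfap, Serpina3n and Lcn2) was -1.94, 0.76 and 2.10 with SH-42. With SH-80 it was 1.69, 1.98 and 1.98. On SH-42 replicate 2 this median was positive, with 2 of the 3 markers above 0, while the median of the interferon-stimulated genes was negative. For 8 measured of 10 markers of other leukocytes the medians were -0.60, -0.03 and 0.16 with SH-42 and 0.17, -0.22 and 0.11 with SH-80, while the 5 rod markers ran the other way on SH-42 replicate 1, at 0.75, and between -0.26 and 0.08 elsewhere. The 6 skeletal muscle markers had -2.50, 0.06 and 0.42 with SH-42 and 0.47, -1.82 and 0.34 with SH-80, and the 12 lens markers had 1.46, 0.10 and -0.85 with SH-42 and 2.74, -1.36 and 2.57 with SH-80. On SH-42 replicate 1 the median was -0.76 for Muller glia, -0.35 for endothelium, -0.41 for surface epithelium, -0.15 for plasmacytoid dendritic cells (a list that holds Bst2), 0.30 for pigment epithelium, 0.59 for cones and 0.88 for bipolar cells. The surface epithelium median was lowest on SH-80 replicate 2, at -2.29. Of the microglia and leukocyte markers, Cd68, Ly6c2 and Ccr2 were the markers not measured. Fewer cells of a type and less RNA per cell cannot be told apart in pooled tissue. The part of these cells, of the slide and of SH-42 replicate 1 in the values of the interferon-stimulated genes was not tested, and slide 1 held no SH-80 array.

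**Figure D4:**
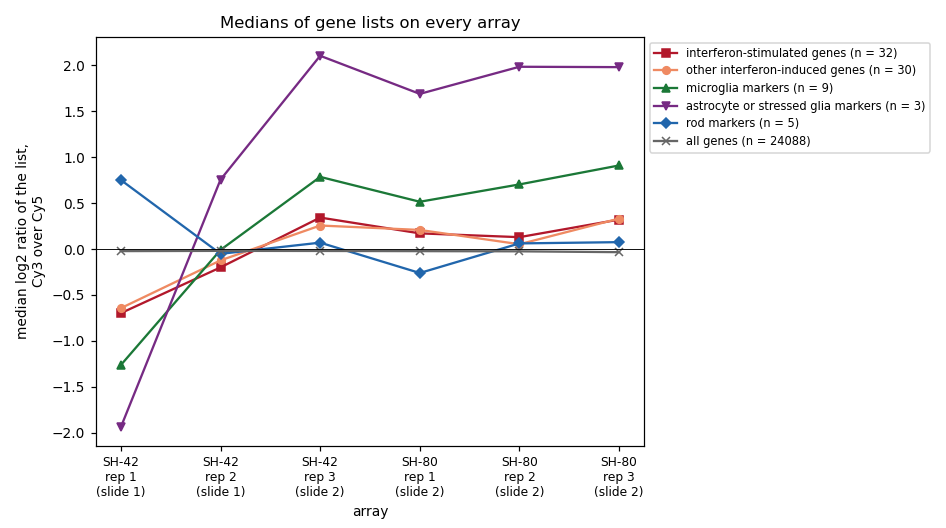
Median log2 ratio, Cy3 over Cy5, of gene lists on each of the 6 arrays: the 32 interferon-stimulated genes (red), 30 other interferon-induced genes (orange), microglia markers (green), markers of astrocytes or stressed glia (purple), rod markers (blue) and all 24088 genes (grey). The interferon lists and both glial lists are lowest on SH-42 replicate 1, and all genes stay near 0.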

How the data were processed

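Spot and local background intensity in both channels, and a log10 ratio of processed signals, come from scanner files made, per the file headers, with Agilent Feature Extraction 11.0.1.1 (9.3.2.1 per the submitters' processing notes). The deposited value table holds, from its values, log2 of processed Cy5 over Cy3 plus a constant per array (r at least 0.9997 across probes).

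Median signals were background-corrected (normexp, offset 50) and loess-normalized within arrays in limma 3.58.1, R 4.3.3. Single channels were then Aquantile-normalized. Of 39429 probes, 66.1% matched a RefSeq symbol, while unmatched ones kept their accession. A probe had to be well above background in Cy3 or in Cy5 on 3 or more arrays, which removed 9962, and the brightest probe of a gene was used, with 9 members having several. Linear models (lmFit and eBayes, 1 coefficient for each compound) used all 6 arrays without blocks, and p-values were adjusted over 24088 genes at 0.05. The fit was tested on simulated data.

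The members and lists were chosen with earlier results of these data known. Test values are printed for up to 8 genes past the threshold, filled to 6 by smallest p, with 4 per comparison for pathway genes, and Isg15, Irf7, Stat2 and Gbp2 always have their array values. Genes named for a dim or second probe were chosen after their values were seen. The accessions listed for Mx1 and Mx2 matched no probe. The values of 1 named pathway gene are not reported here. Alternatives covered background, normalization, source of values, probe filter, several probes, slide, array weights and left-out arrays. The number of arrays limits the precision. Figures used matplotlib 3.10.9 in Python 3.11.15.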

Additional observations from a re-analysis of the deposited data

How the results depend on the processing

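Over all alternatives, the 38 single-gene results gave 626 values with the same direction and side of the threshold, 38 newly past it, 43 no longer past it and 20 turned in sign. The count of members called with SH-42, 0 in the report, was 1 with processed signals (13.4% of all genes called), 1 with the deposited value table (15.7%), 10 with median centring (37.5%) and 4 on slide 2 alone (4.8%), and stayed at 0 with any 1 array left out. The count with SH-80, 1 in the report, was 2 with no background correction (19.8% of all genes), 0 with the strict filter on dim probes, which drops Oas1g (11.5%), 17 from its own arrays or on slide 2 alone (38.2%), 11 with array weights (42%) and 0 with slide as a fixed block (0%). It ranged from 0 to 10 with 1 array left out (10 and 38.8% of all genes on leaving out SH-42 replicate 1, 4 and 13.2% on leaving out SH-42 replicate 3, and 0 and 0% on leaving out any SH-80 array). SH-42 minus SH-80 called 0 members under every alternative with more than 1 SH-42 array, in ratios and in either channel. Of all genes 0% were called there too, except 3.32% within Cy3 without SH-42 replicate 3, so these counts say nothing particular about the members. With slide as a fixed block, medians of the members became -0.055 for SH-80, 0.18 for SH-42 minus SH-80 and -0.17 for that difference in Cy5. On slide 2 alone they were 0.34 for SH-42 and 0.18 for the difference. Both settings take the difference from SH-42 replicate 3 against the SH-80 arrays, so its value is the same by design. The Cy3 median was 0.14 by loess without Aquantile, when the median of all genes was 0.13.

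Signs turned as follows, and the cause was not tested. On slide 2 alone, SH-42 gave 0.026 for Ifit3, 0.35 for Oasl2, 0.22 for Isg15 and 0.15 for Ifitm3. SH-42 minus SH-80 gave 0.026 for Ifit3, 0.13 for Rtp4 and 0.048 for Ifi35 both there and with slide as a fixed block. These settings give the same difference by design. In Cy5 that block gave -0.0051 for Xaf1, -0.0098 for Usp18, -0.044 for Ifit3 and -0.17 for Rtp4. Within Cy3, Oas1g was -0.046 with processed signals, Isg15 -0.014 with median centring, Ifi35 0.14 by loess without Aquantile and Ddx58 -0.021 as the mean of its probes. Within Cy5, Oas1g was 0.41 by loess without Aquantile, and with SH-80 Aim2 was 0.18 with median centring.

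The replicate numbers are shared by both compounds but did not pair the arrays, with same-number correlations of deviations of -0.15, -0.43 and 0.18, and SH-42 replicates 1 and 2 matched another number best. With the replicate block 0 members were called with SH-42, 0 with SH-80 and 0 for the difference, where 0% of all genes were called in each.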
